A study of Mus musculus with 8 samples.

Results

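The transcripts described here are the mRNAs of ferritin and metallothionein in mouse P19 cells, 5 genes of the 13120 with reads: Ftl1, its near-identical copy Ftl1-ps1, Fth1, Mt1 and Mt2. They were selected on the rise of their reads under MHY1485, so that every difference between MHY1485 and DMSO in these genes, in reads or in tails, is given as a description without a test. Together they held 8121 of the 1926118 mRNA reads kept. P19 is a line of embryonal carcinoma cells, wild type, which were left undifferentiated. MHY1485 (MHY), a compound used to activate mTOR, was added at 10 µM in DMSO a day after seeding, and control cultures received an equal volume of DMSO alone. Exposure lasted 24 h or 48 h, with new medium every 24 h. Nanopore direct RNA sequencing, which passes whole native mRNAs through a pore and gives 1 poly(A) tail length per read, was performed on 2 libraries in each of the 4 groups. Libraries carry the numbers of the deposited table, 21 and 23 at 24 h and 24 and 25 at 48 h, which are names and not hours. According to the study's methods the libraries of a group were biological replicates, barcoded and pooled with the other libraries of their time point.

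Ferritin is the iron store of the cell, a hollow shell built of heavy chains (Fth1), which oxidize iron, and light chains (Ftl1), which help to mineralize it. Translation of both chains is held back in iron-poor cells by iron regulatory proteins that bind a stem-loop in the 5′ UTR, the iron responsive element. The same proteins protect the mRNA of the transferrin receptor Tfrc, the main entry route of iron, so that storage and uptake move in opposite directions. Metallothioneins (Mt1 and Mt2) are small cysteine-rich proteins that bind zinc, copper and cadmium, and their genes are switched on by the zinc-sensing factor Mtf1 at metal response elements. Both families are also known targets of stress pathways, among them the oxidative stress factor NRF2.

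Ftl1 and Ftl1-ps1 deserve a look at the sequence, because it decides how far their reads can be told apart. The main Ftl1 transcript (chromosome 7, positions 45457944 to 45459884 of mm10, minus strand, 4 exons, 968 nt), held 98.0% of the Ftl1 reads. The Ftl1-ps1 transcript (chromosome 13, positions 74406409 to 74407346, plus strand, 1 exon, 938 nt) is annotated as protein coding in GENCODE vM21 in spite of its name, and held all Ftl1-ps1 reads. These transcripts, meant wherever positions are given, shared an aligned stretch of 910 nt with 906 identical bases (99.6%). The Ftl1 transcript has 58 nt more at its 5′ end, and that of Ftl1-ps1 has 28 nt more at its 3′ end, of which 26 are A. The 4 substitutions, written as the Ftl1 base, its position from the first base of the Ftl1 transcript and the Ftl1-ps1 base, were A196G in the 5′ UTR, G721A and G757A in the coding sequence, and A817G in the 3′ UTR. The windows around both coding substitutions are printed to show how little separates the transcripts inside the coding sequence, with the differing base in capitals.
Ftl1 at G721A, chr7:45458179-45458203, minus strand: ccgcagggtggcGgggccacaacca
Ftl1-ps1 at G721A, chr13:74407059-74407083, plus strand: ccgcagggtggcAgggccacaacca
Ftl1 at G757A, chr7:45458143-45458167, minus strand: cgcgccccagggGtctctgggcgag
Ftl1-ps1 at G757A, chr13:74407095-74407119, plus strand: cgcgccccagggAtctctgggcgag

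The iron responsive element was found in the 5′ UTR of all 3 ferritin transcripts by its loop CAGTGN, with 1 match each. It is printed with the loop in capitals, since all 3 transcripts share it. The match is one of letters, and the 5′ UTRs of other genes were not searched for it.
Ftl1, chr7:45459778-45459807, minus strand: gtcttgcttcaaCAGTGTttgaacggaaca
Ftl1-ps1, chr13:74406428-74406457, plus strand: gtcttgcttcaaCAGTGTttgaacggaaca
Fth1, chr19:9982732-9982761, plus strand: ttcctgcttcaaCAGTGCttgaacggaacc

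The 30 bases of Ftl1 and Ftl1-ps1 were identical. Reads of the ferritin genes began upstream of the loop: the most common first aligned base was base 58 of Ftl1, base 1 of Ftl1-ps1 and base 70 of Fth1 (chromosome 19, positions 9982646 to 9985098, 929 nt), and the loops start at bases 90, 32 and 99. For Ftl1 the annotated transcript therefore starts well before the reads, and 86.6% of its reads began within 10 nt of base 58, the base next to the first one shared with Ftl1-ps1.

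Mt1 and Mt2 lie side by side on chromosome 8, Mt2 at positions 94172664 to 94173568 (511 nt) and Mt1 at positions 94179082 to 94180327 (549 nt), both on the plus strand with 3 exons. Their coding sequences, 186 nt each with the stop codon, were 79.6% identical, and 99.1% and 97.1% of the reads on these transcripts reached a mapping quality of 10. The most common first aligned base was base 172 of Mt1 (47 of 223 reads) and base 132 of Mt2 (16 of 69 reads), deep in the annotated 5′ UTRs of 229 and 184 nt. Metal response element cores, TGCACNC or TGCGCNC on either strand, occurred 4 times in Mt1 and 3 times in Mt2 before those bases. The nearest forward core began 66 nt before the most common first base in both genes, and these are printed with the core in capitals.
Mt1, chr8:94179175-94179204, plus strand: gtgcaaacccttTGCGCCCggactcgtcca
Mt2, chr8:94172717-94172746, plus strand: gggcggagctttTGCGCTCgacccaatact

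In the RefSeq promoter windows (GRCm38.p6, 250 bases before to 50 after the annotated start), Mt1 held 3 such cores and Mt2 held 4, where 1.97% and 0.517% of 32851 windows held at least as many and 25.7% held any. The windows of Ftl1 and Fth1 held none. The letters TGACNNNGC, the core of the antioxidant response element, were found once in the Mt2 window and not in those of Mt1, Ftl1 or Fth1, against 12.4% of all windows. A match is a matter of letters only, and no window was listed for Ftl1-ps1. In Mt1 and Mt2 the windows ended at positions 94179138 and 94172667, and the most common first bases lay beyond, at 94179253 and 94172795. The bases in between were not searched for TGACNNNGC.

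Libraries held 178369 to 316546 mRNA reads, 83.8% to 87.0% of their mRNA alignments passed the tail caller's quality tag, and their median tails ran from 92.4 to 102.5 nt. Of 10 markers of embryonal carcinoma cells 9 had reads (Zfp42 was at 0), and their sum ran from 3637 to 4187 reads per 1000000 mRNA reads (CPM) with no gap between treatments. Of 12 endoderm markers 9 had reads (Sox17, Afp and Ttr were at 0), and their sum was higher under MHY: 429 to 439 CPM in DMSO and 542 to 706 CPM in MHY at 24 h, 449 to 490 and 640 to 751 CPM at 48 h. Without Apoe, the most abundant, the ranges were 251 to 254 and 276 to 359 CPM at 24 h, and 276 to 310 and 290 to 308 CPM at 48 h, where they overlapped. Of 6 neuronal markers 3 had reads (Dcx, Ncam1 and Rbfox3 were at 0), with overlapping sums at 24 h (283 to 330 CPM in DMSO, 276 to 404 CPM in MHY) and lower sums under MHY at 48 h (281 to 314 and 215 to 238 CPM). Without Stmn2, the most abundant, the sums were higher under MHY at 24 h (26.2 to 58.0 and 67.3 to 75.6 CPM) and overlapped narrowly at 48 h (37.9 to 42.1 and 42.0 to 64.2 CPM). Of 4 mesoderm markers 3 had reads (Tbx6 was at 0), with lower sums under MHY at 24 h (41.9 to 58.0 CPM in DMSO, 16.8 to 22.2 CPM in MHY) and overlapping sums at 48 h (79.6 to 243 and 57.8 to 200.9 CPM). Without T, the most abundant, they overlapped at 24 h (3.63 to 10.5 and 0 to 4.44 CPM) and were higher under MHY at 48 h (9.36 to 12.6 and 14.0 to 25.7 CPM). The part of these markers in the results on ferritin and metallothionein was not tested. In bulk libraries more cells of a type and more RNA per cell cannot be told apart.

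**Figure D1:**
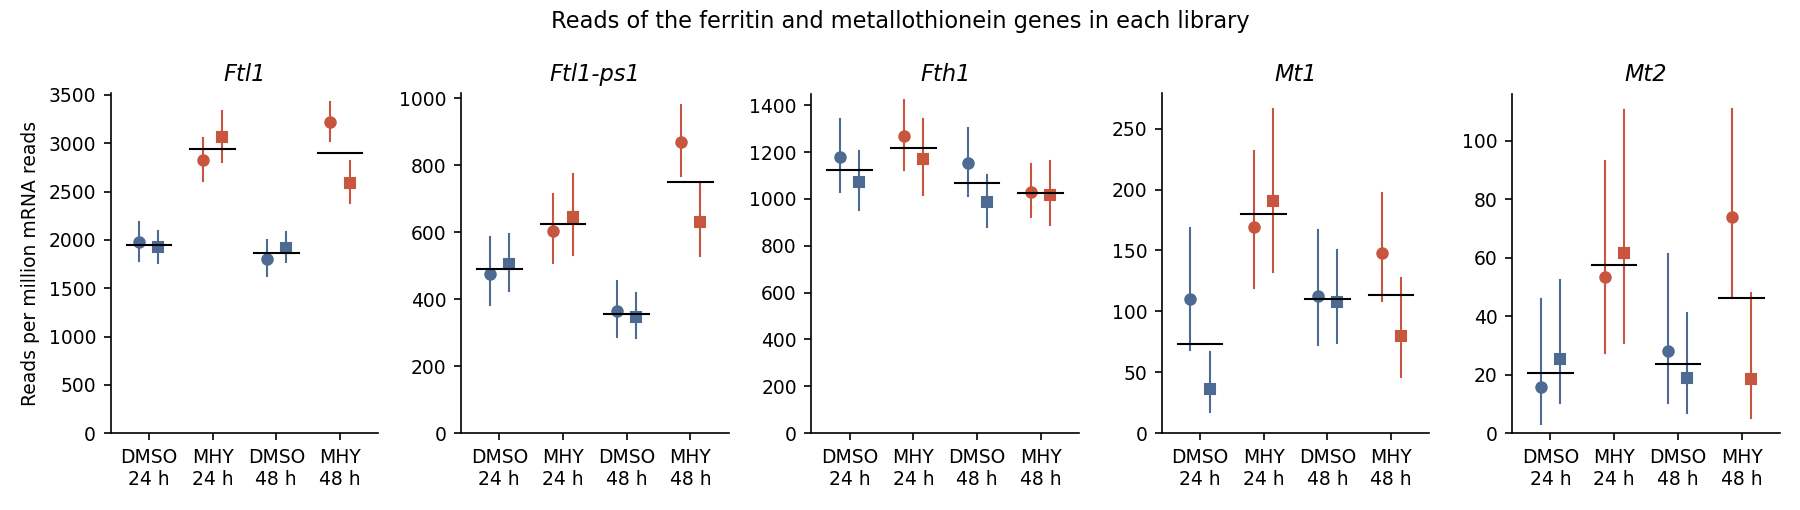
CPM (linear axis from 0) of each gene in the 8 libraries, by treatment and time. Points are libraries (circle, library 21 or 24; square, library 23 or 25), vertical bars 95% Poisson intervals of the count, and black lines group means. Both MHY libraries of Ftl1 and Ftl1-ps1 lie above both DMSO libraries at each time, the groups of Fth1 overlap, and those of Mt1 and Mt2 separate at 24 h only.

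Ftl1 was more abundant in MHY-treated cells at both times, while the Fth1 groups overlapped. Ftl1 had 1973 and 1921 CPM in the DMSO libraries 21 and 23 (377 and 530 reads) and 2823 and 3061 CPM in the MHY libraries (635 and 546 reads) at 24 h. At 48 h it had 1806 and 1918 CPM in the DMSO libraries 24 and 25 (386 and 607 reads) and 3219 and 2588 CPM under MHY (1003 and 554 reads). The lowest MHY library lay above the highest DMSO library at both times. The mean rose from 1947 ± 36.8 to 2942 ± 169 CPM (SD, n = 2 libraries throughout) at 24 h, a ratio of 1.51, and from 1862 ± 78.5 to 2903 ± 447 CPM at 48 h, a ratio of 1.56. In order, MHY at 24 h and MHY at 48 h differed by less than their spread and stood above DMSO at 24 h and DMSO at 48 h, which were close to each other.

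Fth1 had 1178 and 1073 CPM in DMSO and 1267 and 1172 CPM under MHY at 24 h. At 48 h it had 1151 and 986 CPM in DMSO and 1030 and 1018 CPM under MHY. The groups overlapped at both times, with means of 1125 ± 74.1 and 1219 ± 67.2 CPM at 24 h (ratio 1.08) and 1068 ± 117 and 1024 ± 8.51 CPM at 48 h (ratio 0.959). On the log2 scale of the fit, MHY over DMSO was 0.56 (SE 0.12) and 0.53 (SE 0.12) for Ftl1 at 24 h and 48 h, and 0.09 (SE 0.15) and −0.16 (SE 0.14) for Fth1. Summed over the chains, Ftl1 and Fth1 gave a ratio of 1.35 at 24 h and 1.34 at 48 h.

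Ftl1-ps1 followed Ftl1. It had 476 and 504 CPM in DMSO (91 and 139 reads) and 605 and 645 CPM under MHY (136 and 115 reads) at 24 h. It had 365 and 348 CPM in DMSO (78 and 110 reads) and 870 and 631 CPM under MHY (271 and 135 reads) at 48 h. The groups did not overlap at either time, and the ratio of means was 1.27 at 24 h (490 ± 19.5 to 625 ± 28.4 CPM) and 2.11 at 48 h (356 ± 12.4 to 750 ± 169 CPM). Of the reads on both main transcripts together, those placed on Ftl1-ps1 made up 19.6% and 21.0% in DMSO and 17.8% in each MHY library at 24 h, and 17.1% and 15.6% in DMSO and 21.7% and 19.97% under MHY at 48 h. This share was lower under MHY at 24 h and higher at 48 h. Counted as 1 gene, Ftl1 and Ftl1-ps1 gave a ratio of 1.46 at 24 h and 1.65 at 48 h. Among reads of mapping quality of at least 10 the rise of Ftl1-ps1 at 24 h was not seen, as given below.

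Metallothionein reads were few. Mt1 had 21 and 10 reads in DMSO (110 and 36.3 CPM) and 38 and 34 reads under MHY (169 and 191 CPM) at 24 h. At 48 h it had 24 and 34 reads in DMSO (112 and 107 CPM) and 46 and 17 reads under MHY (148 and 79.4 CPM). The groups separated at 24 h, from 73.1 ± 52.1 to 180 ± 15.4 CPM (ratio 2.46), and overlapped at 48 h, with 110 ± 3.47 and 114 ± 48.3 CPM (ratio 1.03). The size at 24 h rested on the low DMSO library 23, since log2 MHY over DMSO, 1.59 (SE 0.32) in the fit, was 0.64 without that library and 2.22 without DMSO library 21. Mt1 reads were also assigned to libraries less firmly than others. A barcode confidence of 0.9 was reached by 8 of 21 and 4 of 10 Mt1 reads in DMSO (38.1% and 40%) and by 26 of 38 and 21 of 34 under MHY (68.4% and 61.8%) at 24 h, and by 35.3% to 58.7% per library at 48 h, where 84.8% of all mRNA reads reached it. With these reads alone log2 MHY over DMSO at 24 h was 2.37, and the part of barcode assignment in the difference was not tested.

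Mt2 had 3 and 7 reads in DMSO and 12 and 11 reads under MHY at 24 h, or 20.5 ± 6.84 and 57.5 ± 5.89 CPM (ratio 2.80). At 48 h it had 6 and 6 reads in DMSO and 23 and 4 reads under MHY, or 23.5 ± 6.45 and 46.3 ± 39.0 CPM. Both groups of 24 h were apart, and at 48 h MHY library 24 was the highest of all while MHY library 25 was the lowest of its time point. Log2 MHY over DMSO in the fit was 1.30 (SE 0.62) at 24 h and 0.85 (SE 0.56) at 48 h, and without MHY library 24 the latter was −0.24. Mt2 entered the fit, and the genes counted over it, only through its MHY libraries, since 10 reads in 2 libraries were asked for and its DMSO libraries held 3 to 7. Together Mt1 and Mt2 gave 126 and 61.6 CPM in DMSO and 222 and 252 CPM under MHY at 24 h, and 140 and 126 CPM in DMSO and 221 and 98.1 CPM under MHY at 48 h. The MHY libraries of 48 h thus fell on both sides of DMSO.

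For 4 of the 5 genes the MHY pair stood above the DMSO pair at 24 h, beside 17.8% of the 4116 genes that had 10 reads or more in 2 libraries or more. At 48 h it did so for 2 of the 5 genes, Ftl1 and Ftl1-ps1, beside 25.2% of genes. Over all genes, the limma voom fit called 2 as higher under MHY at 24 h (0.0486%) and 0 as lower (0%; 184 genes had an unadjusted p under 0.05 in either direction), and 17 as higher (0.413%) and 54 as lower (1.31%) at 48 h. The 5 genes were among those fitted, and no call is given for them, since this contrast was used to choose them.

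**Figure D2:**
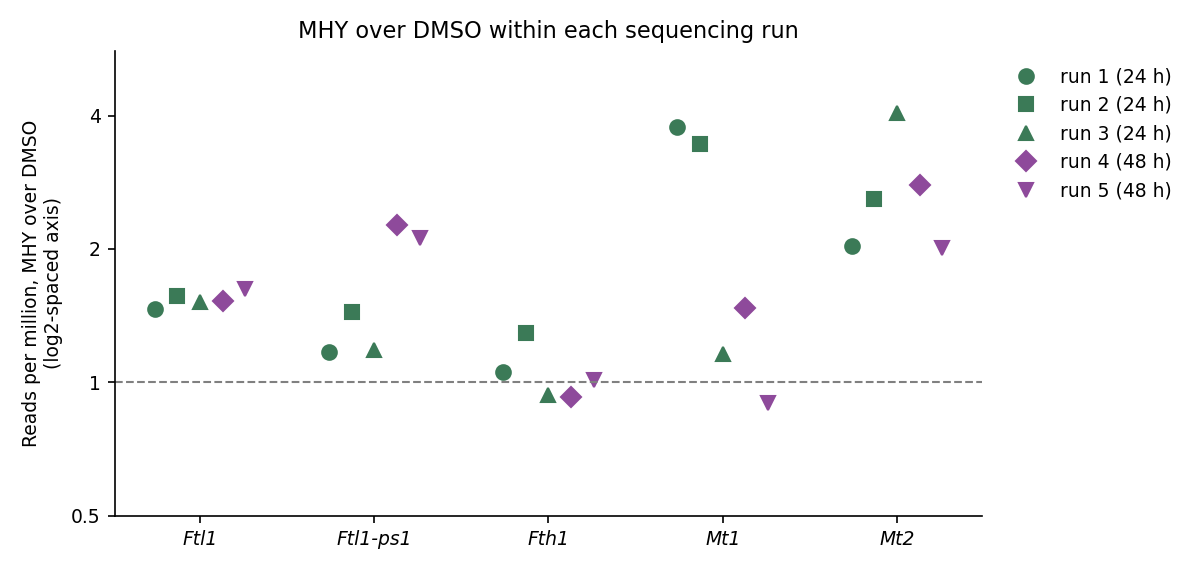
Ratio of CPM, MHY over DMSO (axis spaced on log2), within each of the 5 sequencing runs. Each point sums both libraries of each treatment in 1 run, and the dashed line marks no difference. Ftl1 sits between 1.46 and 1.62 in all runs, Fth1 between 0.924 and 1.29, and Mt1 between 0.90 and 3.77.

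All 4 libraries of a time point shared each sequencing run (3 runs for 24 h, 2 for 48 h), so the ratio could be read within each run. For Ftl1 it was 1.46, 1.56 and 1.52 in the runs of 24 h and 1.53 and 1.62 in those of 48 h, and both MHY libraries exceeded both DMSO libraries in all 5 runs. For Fth1 it ran from 0.924 to 1.29. The Ftl1-ps1 ratio was 1.17 to 1.44 at 24 h and 2.12 to 2.27 at 48 h. That of Mt1 was 3.77, 3.46 and 1.16 at 24 h and 1.47 and 0.90 at 48 h, and that of Mt2 was 2.03 to 4.06 and 2.01 to 2.79. Runs repeat the same libraries and are no further replicates.

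Reads of Ftl1 and Ftl1-ps1 were then compared for how firmly they were placed. Mapping quality, minimap2's score for a placement being the only good one, reached 10 in 33.4% to 38.6% of Ftl1 reads and 12.8% to 26.4% of Ftl1-ps1 reads per library. Ftl1 was higher in 8 of 8 libraries, by 18.4 ± 4.88 percentage points (SD over libraries; two-sided exact sign-flip test, p = 0.00781, adjusted p = 0.00781 over 2 tests, the smallest that 8 libraries allow). Most reads of both genes therefore had a competing placement that scored nearly as well, and 0 reads were listed on both transcripts. With reads of mapping quality of at least 10 alone, log2 MHY over DMSO was 0.51 (SE 0.15) at 24 h and 0.52 (SE 0.15) at 48 h for Ftl1, and 0.03 (SE 0.31) and 0.77 (SE 0.33) for Ftl1-ps1, which kept 10 to 42 reads per library. For Fth1, 0.0947% of reads reached that quality, and its main transcript shares a run of 923 nt with a longer annotated isoform, on which 5.49% of Fth1 reads were placed. Whether this isoform accounts for the low mapping quality of Fth1 reads was not tested.

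**Figure D3:**
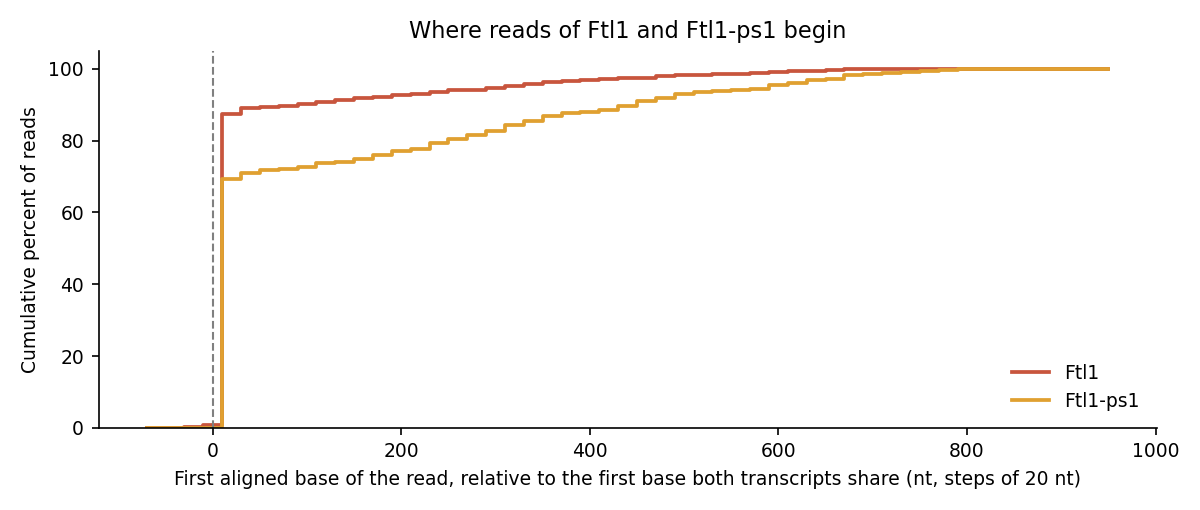
Cumulative percent of reads by their first aligned base, counted in nt from the first base that the Ftl1 and Ftl1-ps1 transcripts share (dashed line), all 8 libraries together. The curve of Ftl1 climbs to 89.5% within 50 nt of that base and that of Ftl1-ps1 to 71.9%, the rest of its reads starting further down.

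Counted from the annotated 5′ ends, 1.25% of Ftl1 reads and 71.9% of Ftl1-ps1 reads began within 50 nt, and Ftl1 was lower in 8 of 8 libraries, by a mean of −70.6 ± 6.24 points (exact sign-flip test, adjusted p = 0.00781). Counted from the first base that both transcripts share, a choice made after seeing the data, the direction turned. Then 89.5% of Ftl1 reads and 71.9% of Ftl1-ps1 reads began within 50 nt, and Ftl1 was higher in 8 of 8 libraries, by 17.6 ± 5.71 points (exact sign-flip test, unadjusted p = 0.00781). At the other end, 1021 of the 1075 Ftl1-ps1 reads (95.0%) ended past the shared stretch, in the 28 A-rich bases that only Ftl1-ps1 has. Their median end was base 916 of 938, and 2 reads reached the last base, while 71.1% of the reads on the main Ftl1 transcript ended at its last base. The bases past the shared stretch are where a poly(A) tail of Ftl1 could itself align, and whether these reads came from chromosome 7 or chromosome 13 was not tested.

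Annotated pseudogenes add further copies of the light chain. Gm15590, Ftl2-ps and Ftl1-ps2 matched Ftl1 at 99.1%, 98.7% and 97.8% over 549 to 552 aligned nt, and Gm12164 matched Ftl1-ps1 at 96.4%. For Fth1 minimap2 listed no transcript of another gene over 500 nt or more. The light chain values above are therefore values of a group of near-identical sequences.

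Ftl1 reads carried tails slightly longer than those of other mRNAs, Fth1 and Ftl1-ps1 reads shorter ones, and Mt1 and Mt2 reads the longest of the 5 genes. Over all libraries the median tail was 104.9 nt for Ftl1, 89.4 nt for Ftl1-ps1, 92.4 nt for Fth1, 123.7 nt for Mt1 and 120.9 nt for Mt2, and 98.7 nt for all other mRNA reads. Among the 1949 genes with at least 10 reads in every library, the mean of the library medians put Mt1 at percentile 97.1, Ftl1 at 65.7, Fth1 at 20.9 and Ftl1-ps1 at 16.7, and Mt2 had too few reads to be ranked.

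**Figure D4:**
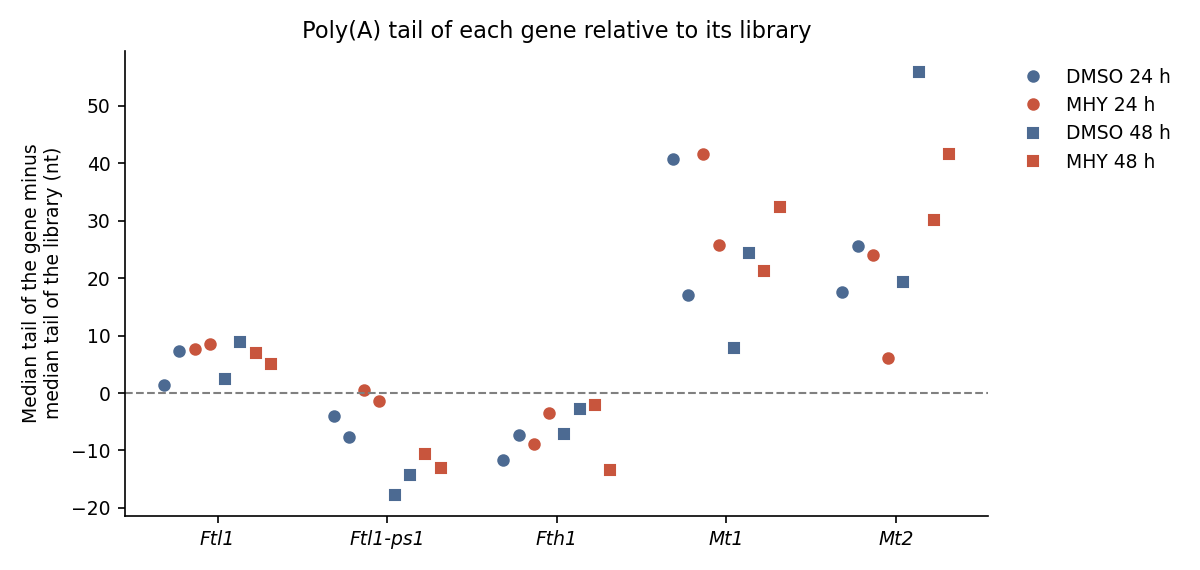
Median tail of each gene minus the median tail of all mRNA reads of the same library, in nt. Each point is 1 library (circles 24 h, squares 48 h) and the dashed line marks the library median. All 8 libraries of Ftl1, Mt1 and Mt2 lie above 0, all 8 of Fth1 and 7 of Ftl1-ps1 below.

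Ftl1 had median tails of 102.1 and 109.9 nt in DMSO and 107.7 and 110.0 nt under MHY at 24 h. At 48 h they were 99.2 and 108.2 nt in DMSO and 99.4 and 103.4 nt under MHY. They exceeded the median of the other mRNA reads in 8 of 8 libraries, by 6.07 ± 2.79 nt (SD; two-sided exact sign-flip test, adjusted p = 0.0104 over 8 tests), with a range of 1.45 to 8.88 nt. Against the median over genes in place of that over reads, the difference was 2.77 ± 2.31 nt and above 0 in 6 of 8 libraries (exact sign-flip test, adjusted p = 0.0313). Among the 1.25% of Ftl1 reads that began within 50 nt of the annotated 5′ end it was 4.56 ± 24.2 nt and above 0 in 4 of 8 libraries, no longer past the threshold (exact sign-flip test, adjusted p = 0.602). Fth1 had 88.9 and 95.2 nt in DMSO and 91.3 and 98.0 nt under MHY at 24 h. At 48 h it had 89.6 and 96.6 nt in DMSO and 90.3 and 84.8 nt under MHY. It lay below the other mRNA reads in 8 of 8 libraries, with a mean difference of −7.11 ± 4.19 nt (exact sign-flip test, adjusted p = 0.0104). The direction turned among reads that began within 50 nt of the annotated 5′ end, 1.89% of Fth1 reads, where Fth1 was higher in 8 of 8 libraries, by 13.6 ± 14.2 nt (exact sign-flip test, adjusted p = 0.0391). Those Fth1 medians rested on 2 to 8 reads per library. Ftl1 tails exceeded Fth1 tails in 8 of 8 libraries, by 13.2 ± 3.28 nt (exact sign-flip test, adjusted p = 0.0104). Among reads starting near the annotated 5′ end this difference was −8.995 ± 27.7 nt (exact sign-flip test, adjusted p = 0.479).

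Ftl1-ps1 reads, nearly the same sequence as Ftl1, carried shorter tails than Ftl1 reads in 8 of 8 libraries, with a mean difference of −14.6 ± 6.39 nt (exact sign-flip test, adjusted p = 0.0104). Their medians were 96.8 and 94.8 nt in DMSO and 100.6 and 100.1 nt under MHY at 24 h. At 48 h they were 79.1 and 85.1 nt in DMSO and 81.7 and 85.3 nt under MHY, all 4 below the 4 of 24 h. The library medians of all mRNA reads separated likewise, with 92.4 to 99.3 nt at 48 h and 100.1 to 102.5 nt at 24 h. Among reads starting within 50 nt of the annotated 5′ ends, few for Ftl1, the difference was −11.6 ± 23.9 nt, below 0 in 5 of 8 libraries and not past the threshold (exact sign-flip test, adjusted p = 0.391). Among reads starting within 50 nt of the first shared base, a choice made after seeing the data, it was −15.8 ± 7.27 nt (exact sign-flip test, unadjusted p = 0.00781). The 1021 Ftl1-ps1 reads that ended past the shared stretch had a median tail of 88.6 nt, and the 54 that ended within it had 115.7 nt. How far bases aligned to the A-rich end were lost to the tail estimate was not tested. Against all other mRNA reads Ftl1-ps1 was lower in 7 of 8 libraries, with a mean difference of −8.52 ± 6.47 nt (exact sign-flip test, adjusted p = 0.0179). That call was lost, at differences of −10.5, −7.66 and −7.03 nt, with mapping quality of at least 10 (exact sign-flip test, adjusted p = 0.0656), with barcode confidence of at least 0.9 (adjusted p = 0.0625) and among reads near the annotated 5′ end (adjusted p = 0.0977).

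Mt1 had median tails of 141.3 and 119.5 nt in DMSO and 141.7 and 127.3 nt under MHY at 24 h. At 48 h they were 104.6 and 123.7 nt in DMSO and 113.6 and 130.5 nt under MHY. They exceeded the other mRNA reads in 8 of 8 libraries, by 26.4 ± 11.5 nt (exact sign-flip test, adjusted p = 0.0104). Mt2, on 3 to 23 reads per library, exceeded them in 8 of 8 libraries as well, by 27.5 ± 15.4 nt (exact sign-flip test, adjusted p = 0.0104). With mean tails in place of medians both genes were above in 7 of 8 libraries. The differences were then 20.9 ± 13.2 nt for Mt1 and 19.1 ± 18.5 nt for Mt2 (exact sign-flip test, adjusted p = 0.0208 and 0.0268). With mapping quality of at least 10, Mt2 was likewise above in 7 of 8 libraries. Mt1 minus Mt2 was −1.20 ± 19.2 nt, from −31.5 to 23.0 nt (exact sign-flip test, adjusted p = 0.844), a spread too wide to tell whether they differ. For comparison, 13.2% of the 1949 genes lay above the library median in all 8 libraries and 10.1% below it in all 8.

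**Figure D5:**
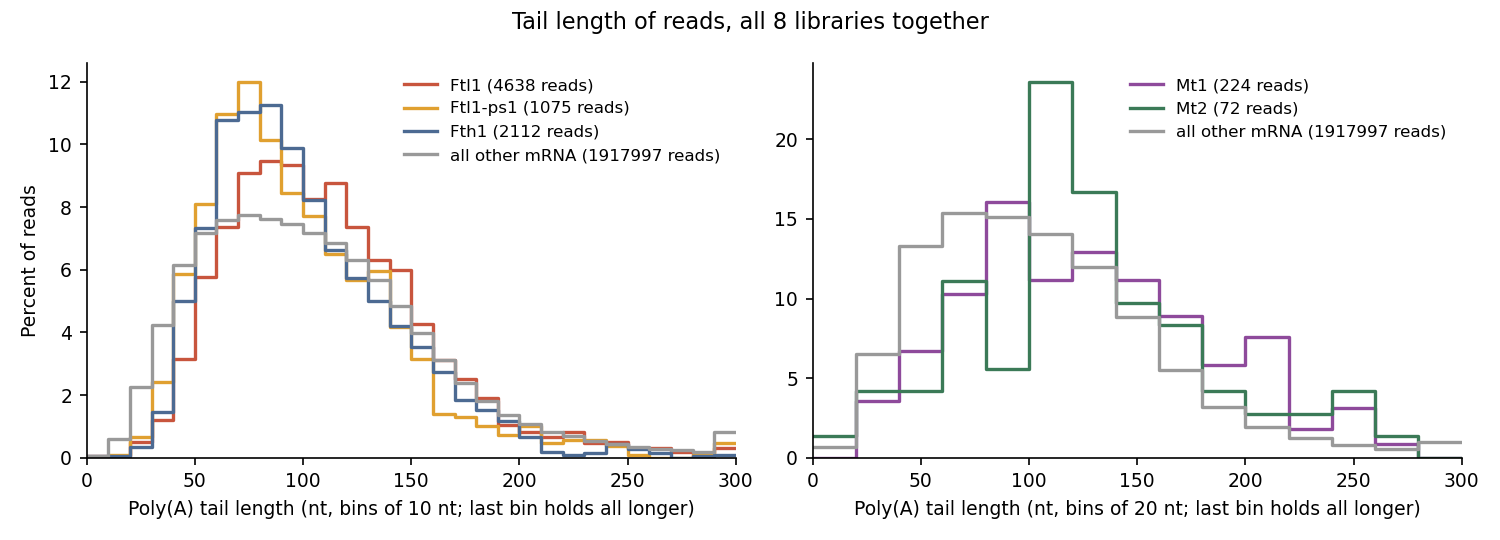
Percent of reads by poly(A) tail length in nt, all 8 libraries together, for the ferritin genes (left, bins of 10 nt) and the metallothionein genes (right, bins of 20 nt), with all other mRNA reads in grey. The ferritin genes have few tails under 30 nt (0.426% to 0.744% of reads, against 2.93% of other reads), and Mt1 and Mt2 are shifted to longer tails.

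Very short tails were rare on ferritin mRNAs. Tails under 30 nt made up 0.604% of Ftl1 reads (28 of 4638; Wilson 95% interval 0.418% to 0.871%), 0.426% of Fth1 reads (9 of 2112; 0.224% to 0.808%) and 0.744% of Ftl1-ps1 reads (8 of 1075; 0.378% to 1.46%). Other mRNA reads had 2.93%, from 2.18% to 4.48% per library. For Mt1 the share was 1.34% (3 of 224 reads; 0.457% to 3.86%) and for Mt2 2.78% (2 of 72 reads; 0.765% to 9.57%), too few reads to set apart from the rest. These intervals cover counting error only. Tails of 30 to 90 nt, a class centred on ~60-nt long tails, made up 36.1% of Ftl1, 46.9% of Fth1, 49.6% of Ftl1-ps1, 25.9% of Mt1 and 22.2% of Mt2 reads, and 40.6% of other mRNA reads. For Fth1 this share was 42.9% to 52.8% per library, against 37.9% to 43.8% for other mRNA reads. For Ftl1-ps1 it was 36.8% to 46.0% at 24 h, where it overlapped the other reads, and 51.8% to 62.8% at 48 h.

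No change of these genes' tails over time passed the test as fitted. In the limma fit of mean tails over the 1949 genes, Ftl1 changed by −8.92 nt (SE 2.31) from 24 h to 48 h under MHY (adjusted p = 0.0833) and by 0.26 nt (SE 2.75; adjusted p = 0.993) in DMSO. Ftl1-ps1 changed by −13.3 nt (SE 4.21; limma adjusted p = 0.167) under MHY and by −11.7 nt (SE 5.16; limma adjusted p = 0.81) in DMSO. Fth1 changed by −4.04 nt (SE 3.76) and −1.28 nt (SE 3.68), and Mt1 by −11.9 nt (SE 10.4) and −11.1 nt (SE 13.5), with limma adjusted p from 0.712 to 0.974. Of all genes, 0 passed in either contrast (0% and 0%), while 196 under MHY and 113 in DMSO had an unadjusted p under 0.05. The count under MHY depended on the setting: 62 genes were shorter at 48 h with a replicate block, 60 without MHY library 25, 26 with barcode confidence of at least 0.9, 21 with median tails and 14 with mapping quality of at least 10. In DMSO the block gave 3. The median over genes moved by −4.94 nt under MHY and −2.41 nt in DMSO. The Ftl1 value under MHY was past the threshold, at −9.46 nt (limma adjusted p = 0.0393), without MHY library 25 of 48 h, and at −9.93 nt (limma adjusted p = 0.042) with barcode confidence of at least 0.9. The 48 h libraries were all sequenced in other runs than those of 24 h, so time and run cannot be told apart.

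Between treatments, mean tails of Ftl1 differed by 4.29 nt (SE 2.64) at 24 h and −4.89 nt (SE 2.43) at 48 h, MHY minus DMSO, where the median over genes was −0.42 and −3.25 nt. For Ftl1-ps1 the differences were 2.84 nt (SE 4.79) and 1.20 nt (SE 4.63), for Fth1 −1.04 nt (SE 3.79) and −3.80 nt (SE 3.65), and for Mt1 0.23 nt (SE 12.99) and −0.60 nt (SE 11.0). At 48 h the sign for Ftl1 was carried by 1 library: without DMSO library 25 the difference was 0.15 nt.

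The genes around iron, zinc and copper were described from fixed lists, with the same fit over 4116 genes. Of 30 iron genes 27 had reads and 16 entered the fit, of 29 zinc and copper genes 26 and 10, of 26 NRF2 targets 26 and 19, and of 10 glucocorticoid-induced genes 9 and 2. At 24 h 0 genes of the 4 lists passed in either direction (limma voom; 4 of 45 had an unadjusted p under 0.05, as had 184 of all 4116 genes), beside 0.0486% of all genes higher. At 48 h 1 passed as higher and 0 as lower (7 of 45 had an unadjusted p under 0.05, as had 506 of all 4116 genes), beside 0.413% and 1.31% of all genes. The median log2 difference over the 45 genes was −0.06 at 24 h and −0.07 at 48 h, against −0.02 and −0.02 over all genes tested.

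The gene that passed was Sqstm1, the autophagy receptor p62, itself an NRF2 target. It had 147 and 145 CPM in DMSO and 196 and 207 CPM under MHY at 24 h, and 192 and 161 CPM in DMSO and 353 and 285 CPM under MHY at 48 h. The MHY libraries were above the DMSO libraries at both times, with log2 differences of 0.43 (SE 0.25; limma voom adjusted p = 0.958) and 0.77 (SE 0.21; limma voom adjusted p = 0.0239). The call at 48 h was lost in 3 of the 4 fits that left out 1 library of 48 h.

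Tfrc, the transferrin receptor, had 94.2 and 76.1 CPM in DMSO and 53.3 and 33.6 CPM under MHY at 24 h, and 108 and 111 CPM in DMSO and 44.9 and 98.1 CPM under MHY at 48 h. All MHY libraries were below the DMSO libraries of their time, but the log2 differences of −0.90 (SE 0.43; limma voom adjusted p = 0.958) and −0.94 (SE 0.32; limma voom adjusted p = 0.105) did not pass. Hmox1, which breaks down heme and frees its iron, gave −0.16 (SE 0.39) and 0.06 (SE 0.34), with overlapping groups at both times. Ncoa4, the receptor that carries ferritin to the lysosome, gave −0.63 (SE 0.58) and 0.99 (SE 0.49; limma voom adjusted p = 0.385). The zinc exporter Slc30a1 (18 reads), the zinc sensor Mtf1 (21 reads) and Nqo1 (4 reads), a classical NRF2 target, were too rare to be fitted. With 2 libraries a group, a gene that missed the threshold is not shown to be unaffected. Of the 45 genes, 0 passed the limma voom interaction of treatment with time.

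Among 2553 other genes with at least 100 reads, the pattern of Ftl1 and Fth1 summed was most like that of Rab7 (Pearson r = 0.966 over 8 libraries, on log2 CPM), a small GTPase of late endosomes, with 124, 174, 122 and 167 CPM on average in DMSO at 24 h, MHY at 24 h, DMSO at 48 h and MHY at 48 h. It was followed by Plaa (r = 0.949), a ubiquitin-binding protein, Psph (0.931), the last enzyme of serine synthesis, Yif1b (0.928), of the early secretory pathway, and Mtx2 (0.923), of the mitochondrial outer membrane. The pattern of Mt1 and Mt2 summed was most like that of Itga6 (0.903), Mrpl32 (0.898), Snrpc (0.885), Dync1li1 (0.871) and Cggbp1 (0.865). These are the highest of many correlations over libraries that share runs, on 101 to 711 reads per gene, and are given as a description.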

How the data were processed

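Direct RNA sequencing reads of 8 libraries were taken from 1 deposited table with a line per alignment. The authors base called with Guppy, aligned with minimap2 2.20 to mm10 transcripts, assigned barcodes with Deeplexicon and estimated tails with Nanopolish. The deposited poly(A) lengths are in nt, the mapping quality is minimap2's score per alignment, and the deposited barcode confidence is a fraction per read. The table gave the group but not which labelled duplicate a library was. Its conditions for libraries 21 and 23 carry no time and were taken as 24 h, because those of libraries 24 and 25 are marked 48.

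Of 2439710 alignments, 2027638 had the tag PASS, and 1926118 remained as mRNA reads after mitochondrial transcripts and pseudogene biotypes were left out. The table holds no counts, so lines were counted per gene. Counts were fitted with limma 3.58.1 (voom, median-of-ratios size factors, 1 term per group) over 4116 genes with at least 10 reads in 2 libraries. Mean tails were fitted with limma, weighted by reads, over 1949 genes with at least 10 reads in every library. Benjamini-Hochberg adjustment was used throughout. Library medians were compared with two-sided exact sign-flip tests. Sequences came from GENCODE vM21 transcripts on mm10, the promoter windows from RefSeq. Alternatives were other scalings, filters, mapping quality of at least 10, barcode confidence of at least 0.9, limma trend, a replicate block and leaving out each library. Scripts were tested on simulated data. The genes and lists were chosen with earlier results of these data known. The rule for named genes took the 5 members, list genes that passed (up to 10 per contrast), Tfrc, Hmox1, Slc30a1, Nqo1, Mtf1 and Ncoa4 whatever their values, and for each family the 5 genes of at least 100 reads most correlated with it.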

Additional observations from a re-analysis of the deposited data

Results flagged for a closer look

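Alignments that lacked the PASS tag were not used for any value above. Per 1000000 mRNA alignments of the library, those of Ftl1, Fth1 and Mt1 at 24 h and of Ftl1 and Ftl1-ps1 at 48 h were more frequent in both MHY libraries than in both DMSO libraries, which makes 3 and 2 of the 5 genes beside 18.1% and 18.8% of the 4116 genes fitted. For Ftl1 they numbered 337 and 353 under MHY against 315 and 170 in DMSO at 24 h, and 419 and 343 against 318 and 315 at 48 h. Fth1 at 24 h had 153 and 218 against 131 and 145, and at 48 h, where the groups overlapped, 125 and 162 against 243 and 141. Mt1 at 24 h had 22.9 and 19.4 against 13.5 and 6.31, on 2 to 6 alignments per library, and overlapped at 48 h. Ftl1-ps1 at 48 h had 122.5 and 122.4 against 66.7 and 58.7, and overlapped at 24 h. Mt2 overlapped at both times. These differences were not tested.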

How the results depend on the processing

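With a replicate block the log2 differences of reads were 0.57 and 0.53 for Ftl1 and 1.33 and −0.07 for Mt1, and calls over all genes went from 17 higher and 54 lower to 21 and 71 at 48 h. Same-numbered libraries deviated together little (r = 0.018 and 0.139), so the numbers were not taken to pair libraries. Within single runs, a choice made after seeing the data, log2 MHY over DMSO was 0.70 for Ftl1 (run 5), 0.53 and 1.18 for Ftl1-ps1 (runs 2 and 4), 0.37, −0.094 and 0.017 for Fth1 (runs 2, 3 and 5), 1.91, 0.21 and 0.55 for Mt1 (runs 1, 3 and 4), and 2.02 and 1.48 for Mt2 (runs 3 and 4). With mapping quality of at least 10, Ftl1-ps1 gave 0.026 and 0.77 for reads, −10.5 nt against other mRNA (no longer past the threshold) and 11.7 nt for tails under MHY at 24 h; Fth1 kept too few reads for a value. With barcode confidence of at least 0.9, Mt1 gave 2.37 at 24 h, Ftl1-ps1 tails −7.66 nt against other mRNA (no longer past the threshold) and Ftl1 tails −9.93 nt over time under MHY (past it). With reads starting within 50 nt of the annotated 5′ end, few for Ftl1 and Fth1, tails gave 4.56 nt (Ftl1) and −7.03 nt (Ftl1-ps1) against other mRNA and −11.6 nt between both, these 3 not past the threshold, while Fth1 against other mRNA and Ftl1 against Fth1 turned to 13.6 nt (past the threshold, adjusted p = 0.0391 by the exact sign-flip test) and −8.995 nt (not past it); Mt1 against Mt2 gave no value. Against the median over genes, Ftl1 tails gave 2.77 nt (still past the threshold). Genes whose tails were called shorter over time under MHY, 0 in the fit as reported, numbered 62 with the replicate block, 26 with barcode confidence of at least 0.9, 21 with median tails, 14 with mapping quality of at least 10, and 0 to 60 leaving out each library. Counted from the first shared base, the difference in read starts turned to 17.6 points. With limma trend, 0 list genes were higher at 48 h. The cause of these changes was not tested.

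Leaving out each library in turn, log2 MHY over DMSO ranged from 0.41 to 0.64 for Ftl1, 0.76 to 1.14 for Ftl1-ps1, −0.51 to 0.27 for Mt1 and −0.24 to 1.53 for Mt2 at 48 h, and from 0.64 to 2.22 for Mt1 at 24 h. List genes called at 48 h ranged from 0 to 1 higher and 0 to 2 lower, and the Ftl1 tail change under MHY from −9.46 to −7.94 nt. Tail differences between treatments ranged from −5.70 to 5.08 nt (Fth1) and −11.8 to 25.5 nt (Mt1) at 24 h, and from −8.09 to 0.15 nt (Ftl1) and −8.15 to 12.02 nt (Mt1) at 48 h. Reads of Mt1 and Mt2, 3 to 46 per library, limit what can be said of them.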
